A study of Drosophila melanogaster with 2 samples.

Results

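CG8478 binding peaks of the fly embryo that appeared only in the larger, less strict peak list were examined here, and they are called optimal-only peaks. The authors deposited a larger list, called the optimal list here, and a smaller conservative list for the same pair of replicates. Optimal-only peaks are those of the optimal list on the main chromosome arms that share no base with any conservative peak. They were therefore chosen by measured values, since both lists were made by a threshold on the reproducibility of the signal. The rule found 491 such peaks among the 3101 optimal peaks on the main arms (15.8%, 95% Wilson interval 14.6 to 17.2). The remaining 2610 optimal peaks overlapped a conservative peak. The conservative list held 2904 peaks on these arms, of which 2629 overlapped an optimal peak and 275 did not. Those 275 are called conservative-only peaks.

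The peaks come from chromatin immunoprecipitation with sequencing (ChIP-seq) in Drosophila melanogaster. Whole embryos 0 to 24 h old came from transgenic flies that make CG8478 joined to enhanced green fluorescent protein (eGFP), and bound DNA, sheared by sonication to 200 to 800 bp, was pulled down with an antibody to GFP. The series has 1 group, CG8478-eGFP, with 2 biological replicates, and no second genotype or treatment. The labels name a possible control experiment, which was not used here. Whole embryos mix all cell types and stages in 1 library, and the antibody reads a tagged transgene and not the untagged protein, so a peak shared by all cells at a low level and a peak strong in few cells cannot be told apart. No read counts were used, so the depth behind each peak is unknown.

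In fly embryos many broadly active genes share core promoter sequences that differ from those of genes with restricted expression. The DNA replication-related element (DRE) is bound by the factor DREF, and its core contains the short sequence read by the boundary factor BEAF-32. Motif 1, bound by M1BP, and motifs 6 and 7 are further elements found at promoters of broadly active genes. The TATA box and the initiator belong to another promoter type, and GAGA repeats are bound by GAGA factor (Trl), which opens chromatin at many developmentally controlled genes. The irreproducible discovery rate (IDR) ranks peaks in a pair of inputs and estimates how many of those above a given rank would not repeat. In the scheme commonly used for such data, the conservative list compares the replicates themselves and the optimal list can also come from splits of the pooled reads, but the deposited headers do not name the inputs of each ranking.

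The windows of 5 optimal-only peaks show the kinds of sequence in the set. Each line is a summit with 100 bases on either side, read from the + strand of the Release 6 genome sequence, the build that dm6 coordinates refer to. The windows were picked by motif and by highest signal after the values had been seen. Cat, which encodes catalase, has the highest signal of all optimal-only peaks, 237.42, with a summit 47 bp upstream of the start site (chr3L:18822457-18822657); capitals mark the DRE core. Polr1B, a subunit of RNA polymerase I, had a signal of 71.91 and a summit 116 bp upstream (chr2L:404069-404269); capitals mark the motif 7 core, here on the other strand. The serine tRNA gene tRNA:Ser-GCT-2-3 had a signal of 111.38 with the summit 61 bp downstream of its start (chr3R:22396489-22396689), where capitals mark the B box, an internal element of tRNA genes that TFIIIC binds. The CG9171 window, in a non-coding exon where CG9171 and asRNA:CR31912 lie on opposite strands, 1134 bp from the nearest start site, had a signal of 77.14 (chr2L:5771282-5771482), and capitals mark the 5 bases read as GAGA on the other strand. Bruce, a large ubiquitin-conjugating inhibitor of apoptosis, had a signal of 118.73 and a summit 84 bp upstream (chr3R:10331337-10331537), and its window held none of the DRE, BEAF, motif 1, motif 6 or motif 7 cores and so has no capitals.
Cat: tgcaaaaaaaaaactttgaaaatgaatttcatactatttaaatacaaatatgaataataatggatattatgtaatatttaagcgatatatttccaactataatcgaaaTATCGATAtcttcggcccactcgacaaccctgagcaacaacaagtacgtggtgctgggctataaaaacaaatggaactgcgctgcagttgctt
Polr1B: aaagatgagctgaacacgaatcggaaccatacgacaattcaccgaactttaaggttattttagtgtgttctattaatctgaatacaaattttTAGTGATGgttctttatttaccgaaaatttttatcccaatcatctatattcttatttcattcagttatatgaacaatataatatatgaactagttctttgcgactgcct
tRNA:Ser-GCT-2-3: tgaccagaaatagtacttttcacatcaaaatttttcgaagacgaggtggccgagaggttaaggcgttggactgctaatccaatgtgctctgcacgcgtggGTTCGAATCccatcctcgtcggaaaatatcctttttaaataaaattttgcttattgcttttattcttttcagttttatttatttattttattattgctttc
CG9171: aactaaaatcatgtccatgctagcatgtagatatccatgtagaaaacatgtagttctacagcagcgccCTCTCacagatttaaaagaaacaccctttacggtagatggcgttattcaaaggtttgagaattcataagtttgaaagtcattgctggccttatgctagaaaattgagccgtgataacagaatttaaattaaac
Bruce: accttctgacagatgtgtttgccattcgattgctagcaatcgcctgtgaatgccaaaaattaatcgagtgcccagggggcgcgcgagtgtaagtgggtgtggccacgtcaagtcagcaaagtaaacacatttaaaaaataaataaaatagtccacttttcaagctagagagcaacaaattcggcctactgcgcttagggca

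Optimal-only peaks lay low in the optimal list. Their deposited signal had a median of 56.9 (quartiles 49.3 and 65.3), a lowest value of 2.04 and a highest of 237. The conservative peaks had a median of 128 (74.3 and 239) and a highest value of 2181. The best rank reached by an optimal-only peak was 735, 484 of the 491 (98.6%) fell below the median rank of the list, and 406 (82.7%) were in its lowest 25%. By their signal they were the weaker peaks of the list. The signal has no stated scale, but 2532 intervals stand in both lists with equal signals, so the lists can be set side by side. These values come from the same reads as the rule and are given as a description with no test. Conservative-only peaks, which also stand in 1 list only, had a median of 56.5 (48.6 and 63.6).

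**Figure D1:**
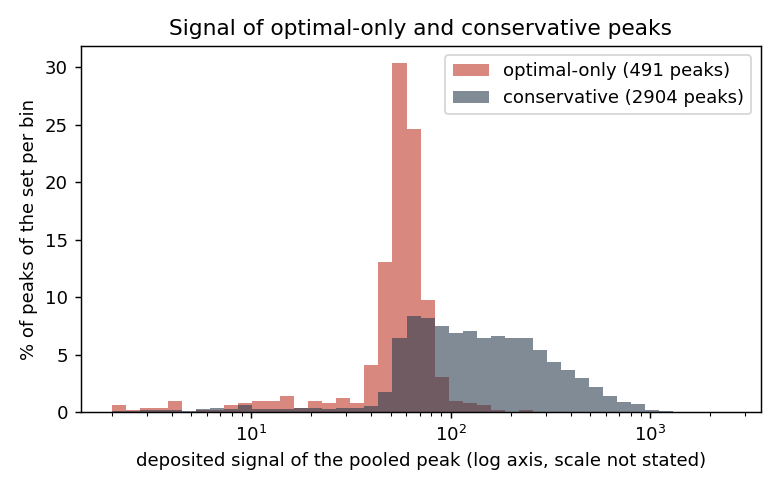
Share of peaks (y axis, percent of each set) by deposited signal (x axis, log scale, scale not stated) for the 491 optimal-only and the 2904 conservative peaks. Most optimal-only peaks sit near their median of 56.9, while conservative peaks spread around 128 and up to 2181.

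The set is not made of 491 separate places. It forms 442 distinct regions, and 96 of its peaks overlap another optimal peak. Of 53 optimal-only peaks with a signal below 30, 47 overlap another optimal peak. Most had 1 fixed width: 481 (98.0%) were 404 bp wide, against 1738 (59.8%) of the conservative peaks, and 10 were narrower. The median gap to the nearest conservative peak was 7806 bp. In 68 cases it was under 1000 bp and in 3 under 100 bp, and 7 of the 10 narrow peaks were within 1000 bp of a conservative peak.

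At the threshold the set has a sharp edge in reproducibility but not in signal. In the ranking behind the optimal list the −log10 IDR of its peaks ran from 2.00 to 5.0 with a median of 2.33, and their deposited scores ran from 830 to 1000. In the ranking behind the conservative list, 461 had an entry, with a median of 1.02 and a highest value of 2.00 after rounding, and 37 were above 1.9. The other 30 had no entry there. Just inside the optimal threshold were peaks nearest to TfAP-2 (signal 43.43, score 830), Sugb (60.93, 830) and SmD1, with 2 overlapping peaks of signal 3.59 and 54.12 and score 831. Just outside were entries nearest to CG9536 (34.18, 830), CG13427 (54.79, 829), Con (52.51, 829) and Nup107 (43.41, 829). The signals on both sides overlapped. The conservative-only peaks are the mirror case: 268 of the 275 had an entry in the ranking behind the optimal list, with a median −log10 IDR of 0.815 and a highest value of 1.99. The deposited −log10 q-value per peak had a median of 0.767 in optimal-only peaks and 2.08 in conservative peaks.

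Few optimal-only peaks reached the threshold in both replicates when each replicate was processed alone. Replicate 1's own list held 157 of them (32.0%, 28.0 to 36.2), where 73.2% of all optimal peaks were held. Replicate 2's own list held 83 (16.9%, 13.8 to 20.5), where 68.6% of all optimal peaks were held. Only 5 (1.02%) were in both lists, 152 (31.0%) in replicate 1's alone, 78 (15.9%) in replicate 2's alone, and 256 (52.1%) in neither. Of the conservative peaks 63.6% were in both lists and 17.7% in neither. Of the conservative-only peaks 1.45% were in both and 84.0% in neither. Membership was decided on the same reads, so these shares are a description.

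The replicates' own ranked lists gave paired signals for these peaks, set out as a description with no test. They come from the reads that chose the peaks, and leaving out every conservative peak can itself favour unequal replicate signals. An optimal-only peak overlapped an entry in replicate 1's ranked list in 475 cases (median signal 34.1) and in replicate 2's in 445 (median 21.4). The highest overlapping entry was taken, so neighbouring peaks can share an entry. The conservative peaks had medians of 76.6 and 63.6 in these lists. Among the 429 optimal-only peaks with an entry in both, the log2 ratio of replicate 1 to replicate 2 had a median of 0.67 and an SD of 1.07 across peaks, and 189 (44.1%) differed by more than 1 on the log2 scale. The conservative peaks had a median of 0.18, an SD of 0.51 and 7.60% beyond 1, and the conservative-only peaks 0.18, 0.39 and 2.40%. The scale of each replicate's list is not stated, and a scale difference would move both the median and the share beyond 1. With each set's own median subtracted, 169 optimal-only (39.4%), 158 conservative (5.51%) and 4 conservative-only peaks were beyond 1.

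**Figure D2:**
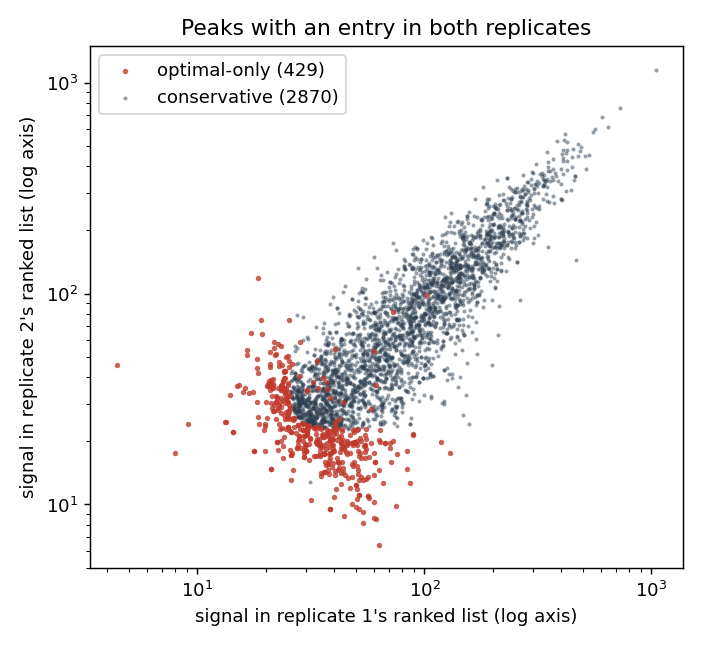
Signal in replicate 1's ranked list (x axis) against replicate 2's (y axis), both on log axes with no stated scale, for the 429 optimal-only and the 2870 conservative peaks with an entry in both. Conservative peaks follow the diagonal, while optimal-only peaks lie at its low end and spread to both sides. Of the optimal-only peaks 44.1% differ by more than 1 on the log2 scale. The spread is a description, since the peaks were chosen on the same reads.

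The highest optimal-only peaks were mostly high in 1 replicate. The rule can favour this, since it leaves out every peak of the conservative list, so the values are a description. Of the 13 with a signal of at least 100, 1 was in both replicates' lists, 10 in replicate 1's alone, 2 in replicate 2's alone and 0 in neither. The Cat peak (3L, 18822447 to 18822636) had 111.75 in replicate 1's ranked list and no entry in replicate 2's. The peak 671 bp upstream of psq, a BTB-domain transcription factor gene (2R, 10557143 to 10557261; 155.10), had 81.49 in replicate 1 and no entry in replicate 2. The peak 699 bp upstream of ed, which encodes the cell adhesion protein Echinoid (2L, 4030476 to 4030879; 153.59), had 129.35 in replicate 1 and 17.50 in replicate 2. In these 3 peaks the entry of replicate 1 was the higher or the only one. The peak at the cytochrome P450 gene Cyp6a22 (145.31) had 118.53 in replicate 1 and 19.81 in replicate 2. The peak at dlg1, a scaffold protein of cell junctions (X, 11389526 to 11389929; 115.46), had 89.10 in replicate 1 and 21.36 in replicate 2. The Bruce peak had 97.80 in replicate 1 and no entry in replicate 2. Here no entry means only that nothing in that replicate's own ranked list overlapped the peak. In the ranking behind the conservative list the −log10 IDR was 1.77 at Bruce and 1.54 at dlg1, and 0.17 at ed and 0.82 at Cyp6a22. Cat and psq had no entry there. Replicate 2 was the higher at SK, a calcium-activated potassium channel gene (X, 5382668 to 5382862; 128.32). The SK peak had 18.49 in replicate 1 and 119.03 in replicate 2. It lies in an intron, 17516 bp from the nearest start site. The SK window was 67.2% repeat-masked and the ed window 55.2%. The Irp-1B peak (124.99), at a gene for an iron regulatory protein, had no entry in replicate 1 and 37.76 in replicate 2. The other peaks among the 12 highest were at Best1, a bestrophin channel gene (106.57), at fuss on arm 4 (104.94), at tRNA:Ser-GCT-2-3, and at tRNA:Phe-GAA-1-5 (159.21), which had similar signals of 102.77 in replicate 1 and 98.13 in replicate 2. The tRNA:Phe-GAA-1-5 peak is 105 bp wide and ends 14 bp from a conservative peak. Its replicate entries can therefore belong to a neighbouring peak. In the ranking behind the conservative list its −log10 IDR was 0.09.

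Besides that phenylalanine tRNA peak, 4 optimal-only peaks were in both replicates' own lists. They were at Ubqn, the fly ubiquilin (X, 19683706 to 19683815; 84.69), at Asph, an aspartyl beta-hydroxylase gene (2R, 16110162 to 16110565; 67.68), at E(spl)malpha-BFM, a Notch target of the Bearded family (3R, 26010726 to 26011129; 67.13), and at Ubc4, a ubiquitin-conjugating enzyme gene (3L, 9698294 to 9698697; 4.31). All 5 were promoter peaks. The pooled signal at Ubc4 was among the lowest of the set, while the highest overlapping entries had 72.69 in replicate 1 and 81.85 in replicate 2. These entries can belong to a neighbouring peak. In the ranking behind the conservative list the −log10 IDR of the Ubc4 peak was 0.09. The Ubqn and Asph peaks lay 7 bp and 38 bp from a conservative peak.

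Optimal-only peaks were less often at promoters than conservative peaks. With a promoter peak defined by a summit no more than 500 bp from any annotated start of transcription, promoters held 326 of 491 (66.4%, 62.1 to 70.4), against 2577 of 2904 conservative peaks (88.7%, 87.5 to 89.8). The difference was -22.3 percentage points (95% interval -26.8 to -18.1; Fisher's exact test, two-sided, adjusted p = 2.81e-31, adjusted by Benjamini-Hochberg over 18 properties, as are all such p-values here). In all, 10 of the 18 properties passed at an adjusted p of 0.05, which is 55.6% of those tested, 2 of them higher and 8 lower in optimal-only peaks. A summit within 100 bp of a start site was found for 43.0%, against 71.2% (difference -28.3 points, -32.9 to -23.6; exact adjusted p = 6.03e-32). Divergent promoters, with protein-coding start sites on both strands within 500 bp, made up 15.9%, against 33.1% (-17.2 points, -20.7 to -13.4; exact adjusted p = 3.23e-15). Fisher's test treats peaks as independent although some overlap. Against the conservative peaks below their median signal the differences were smaller, at -14.05 points for promoters, -16.19 within 100 bp and -9.67 for divergent promoters, and each still passed. With only the 83 optimal-only peaks in replicate 2's own list they were -12.84 points for promoters (exact adjusted p = 0.00781) and -15.82 within 100 bp (0.0109), and the divergent share was no longer past the threshold (-4.21 points, 0.599). With start sites within 250 bp the divergent difference was -10.23 points.

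**Figure D3:**
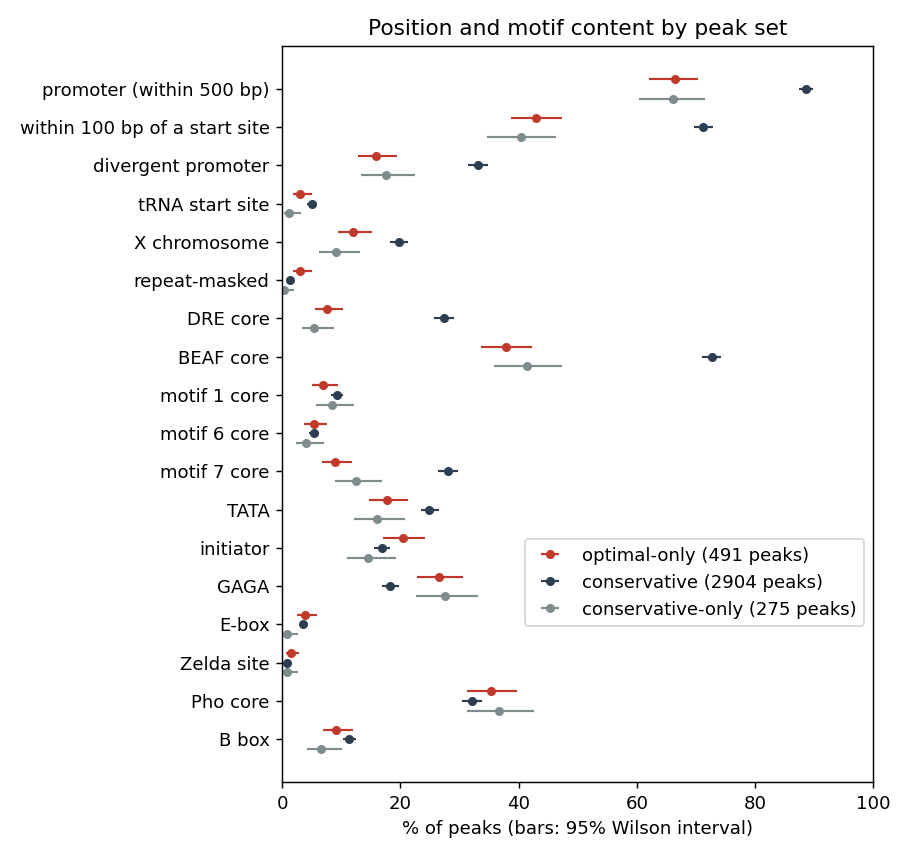
Share of peaks (x axis, percent, with 95% Wilson intervals) with each position or motif property (y axis) for 491 optimal-only, 2904 conservative and 275 conservative-only peaks. The optimal-only shares differ from the conservative ones most for the BEAF core, summits within 100 bp of a start site, promoters, the DRE core and motif 7, and lie near the conservative-only shares.

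Within promoters the summits were spread more widely. The median offset of optimal-only promoter summits from their start site was -15.5 bp, and 56.4% lay upstream, against -34.0 bp and 73.4% for conservative promoter summits. Of the promoter peaks, 64.7% of the optimal-only ones and 80.3% of the conservative ones were within 100 bp of the start site (-15.6 points, -21.1 to -10.3; Fisher's exact test, adjusted p = 5.17e-09). This comparison of promoter peaks was added after the values were seen. The nearest start site of the 326 optimal-only promoter peaks belonged to a protein-coding gene in 293 cases, to a tRNA gene in 15, to a non-coding RNA gene in 17 and to an snRNA gene in 1. Non-coding RNA genes made up 5.21% (3.28 to 8.19) of them, against 1.67% (1.24 to 2.24) of the conservative promoter peaks.

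**Figure D4:**
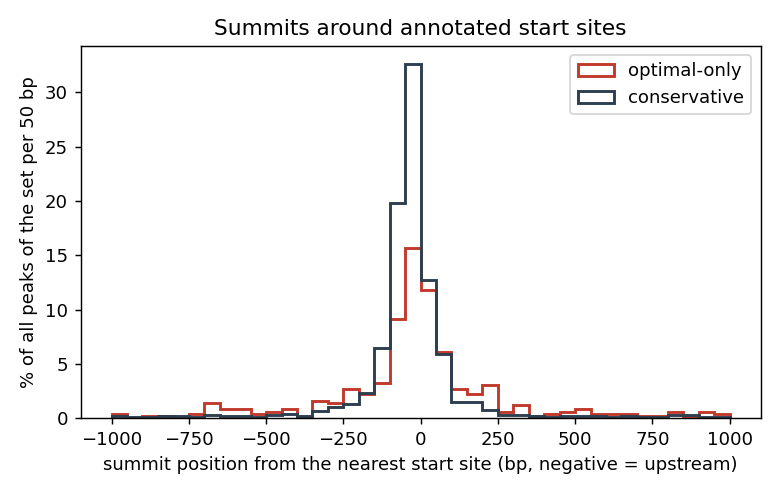
Position of the summit relative to the nearest start site (x axis, bp, negative is upstream) as the percent of all peaks of the set per bin (y axis). Both sets peak just upstream of the start site, and the optimal-only peaks are lower there and broader, with 43.0% of all summits within 100 bp, against 71.2% of conservative summits.

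The 165 optimal-only peaks away from promoters were spread over introns, intergenic sequence and exons. Introns held 62 (12.6% of all 491), against 4.30% of conservative peaks, and intergenic sequence 58 (11.8%), against 4.24%. Coding exons held 33 (6.72%), against 1.89%, and 3' UTRs 6 (1.22%), against 0.585%. These classes add up to 1 total, so a lower promoter share raises them by construction. Of the 165, 44 were within 1 kb of a start site, 121 within 5 kb, and 18 over 10 kb away. The median signal was similar at promoters (57.5), in introns (58.7) and in intergenic sequence (55.8). It was lower in coding exons, at 50.2 with an upper quartile of 57.0, and these differences were not tested. After psq, ed, SK and fuss, the highest distal peaks were nearest to snoRNA:CG43051-a (2L, 12520264 to 12520667; 95.51), CheB93b (3R, 21408365 to 21408768; 92.21), unc79, a subunit of the sodium leak channel complex (3R, 19238955 to 19239358; 88.26), and gzl, which encodes the ubiquitin ligase Godzilla (3R, 6388282 to 6388685; 87.42). In these 4 the replicates were again unequal, which the rule can favour. The peak nearest to snoRNA:CG43051-a lies 12358 bp from that start site, in an intron of bun. It had 19.07 in replicate 1 and 74.49 in replicate 2. In the same order the signals were no entry and 78.13 near CheB93b, 67.25 and 19.63 in an intron of unc79, and 89.18 and no entry near gzl.

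The X chromosome held 59 optimal-only peaks (12%, 9.43 to 15.2), against 19.7% of conservative peaks (-7.68 points, -10.7 to -4.21; Fisher's exact test, adjusted p = 8.34e-05). The highest on X after SK and dlg1 was at Raf, a kinase of the MAP kinase cascade (98.28). Arm 2L held 93, 2R 128, 3L 107, 3R 100 and arm 4 held 4, and no optimal-only peak was on Y, where 2 conservative peaks lay. On arm 4 the highest were 2 neighbouring intergenic peaks upstream of fuss, with signals of 104.94 and 66.90, and 1 near asRNA:CR45126 (29.97). Summits whose window is over 50% repeat-masked made up 3.05%, against 1.38% (1.68 points, 0.38 to 3.64; exact adjusted p = 0.0198), and among promoter peaks the difference was -0.05 points. Among the 83 peaks in replicate 2's own list neither call held, with -7.65 points for X (exact adjusted p = 0.216) and 3.44 points for repeats (0.0971).

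The DRE, BEAF and motif 7 cores were less frequent in optimal-only peaks than in conservative peaks. The DRE core TATCGATA, searched on both strands within 100 bp of the summit like every motif here, was in 37 optimal-only windows (7.54%, 5.52 to 10.2), against 793 conservative windows (27.3%, 25.7 to 29.0; difference -19.8 points, -22.4 to -16.7; Fisher's exact test, adjusted p = 1.52e-24). The BEAF core CGATA, which every DRE core also contains, was in 37.9%, against 72.7% (-34.8 points, -39.3 to -30.1; exact adjusted p = 1.16e-47). The motif 7 core CANCNCTA was in 8.96%, against 28.0% (-19.1 points, -21.8 to -15.8; exact adjusted p = 5.46e-22). Against the conservative peaks below their median signal these differences were smaller, at -9.13 points for the DRE core, -18.80 for the BEAF core and -7.09 for motif 7, and each passed. Against the 2170 conservative peaks within the full signal range of the optimal-only ones, 2.04 to 237, the motif 7 difference was -12.24 points and passed. That range is wide, so this is not a match on signal. Shares by bands of signal are given further below. The optimal-only shares were near those within 100 bp of all 19275 annotated protein-coding start sites, where 6.44% held the DRE core, 37.1% the BEAF core and 11.0% the motif 7 core. They were above those 1000 bp to the right of the same summits, where 0.611% held the DRE core, 26.3% the BEAF core and 5.70% the motif 7 core. None of the 5 cores was in 252 optimal-only windows (51.3%), as in the Bruce sequence shown above, against 587 conservative windows (20.2%). A match says only that the letters are there, and no match says nothing of what binds.

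The lower shares of the DRE, BEAF and motif 7 cores were also seen at promoters alone. Among promoter peaks the DRE core was in 26 of 326 optimal-only peaks (7.98%), against 757 of 2577 conservative peaks (29.4%; -21.4 points, -24.5 to -17.5; Fisher's exact test, adjusted p = 1.86e-18), and Cat is one of the 26. Motif 7 was in 10.4%, against 29.6% (exact adjusted p = 1.77e-14), and the BEAF core in 43.3%, against 76.4% (exact adjusted p = 2.15e-31). Motif 1, GTCACAC, was in 6.92% of optimal-only and 9.23% of conservative peaks (-2.30 points, -4.53 to 0.48; exact adjusted p = 0.143). At promoters its shares were 9.82% and 9.86%. Motif 6, GGTATNNTT, was in 5.30% and 5.37% (-0.08 points, -1.95 to 2.39; exact adjusted p = 1.00). Neither motif 1 nor motif 6 passed the test, although among the 157 peaks in replicate 1's own list the motif 1 difference was -5.41 points (exact adjusted p = 0.0368), and among the 83 in replicate 2's it was 1.61 points (0.599).

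GAGA sequence ran the other way. The letters GAGAG, also present by chance in many windows, were in 130 optimal-only peaks (26.5%, 22.8 to 30.6), against 531 conservative peaks (18.3%, 16.9 to 19.7; 8.19 points, 4.21 to 12.5; Fisher's exact test, adjusted p = 0.0001). The share was 25% at all protein-coding start sites and 24.2% in the flanks of the optimal-only summits, so the optimal-only share was near both and the conservative share was below them. The call was lost against the conservative peaks below their median signal (3.89 points, exact adjusted p = 0.128) and among the 83 peaks in replicate 2's own list (3.40 points, exact adjusted p = 0.599). By position GAGAG was in 32.7% of the 165 distal optimal-only peaks, among them the CG9171 window shown above, and in 23.3% of the 326 at promoters, against 24.8% and 17.5% of the conservative peaks. The TATA box TATAAA was lower, in 17.7%, against 24.9% (-7.18 points, -10.7 to -3.24; exact adjusted p = 0.000938), but among promoter peaks it was in 20.9%, against 25.3% (exact adjusted p = 0.177). It was also short of the threshold against the conservative peaks below their median signal (-3.70 points, exact adjusted p = 0.128), for the optimal-only peaks at or above theirs (-3.35 points, 0.459) and among peaks in 1 replicate's own list, at -4.41 points in replicate 2's and -1.33 points in replicate 1's. The initiator (TCAGTT or TCAGTC) was in 20.4%, against 16.8% (3.56 points, -0.05 to 7.57; exact adjusted p = 0.0975). The E-box CACGTG, the Zelda site CAGGTAG, the Pho core GCCAT and the B box GTTCNANNC did not pass either.

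Optimal-only peaks were richer in G and C than conservative peaks. The same windows of optimal-only peaks had a median GC content of 45.3%, against 39.3% in conservative peaks, 46.3% in conservative-only peaks and 42.3% at all protein-coding start sites. At promoters the medians were 43.5% and 38.8%, and away from promoters 47.8% and 45.3%. The DRE core and the TATA box are rich in A and T, and the part of base composition in their shares was not tested.

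Against the 275 conservative-only peaks, a comparison added after the values were seen, no property of the optimal-only peaks passed the test. Of the 18 properties, 0 passed (Fisher's exact tests adjusted over the 18), and 2 had an unadjusted p under 0.05, repeat-masked sequence (3.05% against 0.364%) and the E-box (3.87% against 0.727%), each with an adjusted p = 0.133. The promoter share was 66.4% in optimal-only and 66.2% in conservative-only peaks (0.21 points, -6.63 to 7.26). The DRE core was in 7.54% and 5.45% (2.08 points, -1.83 to 5.50), motif 7 in 8.96% and 12.4% (-3.40 points, -8.34 to 1.02), the BEAF core in 37.9% and 41.5% (-3.57 points, -10.8 to 3.58) and GAGAG in 26.5% and 27.6% (-1.16 points, -7.85 to 5.25). X held 12% and 9.09% (2.93 points, -1.82 to 7.20). These intervals limit the differences to sizes well under those found against all conservative peaks for promoters, the DRE core and the BEAF core, but they do not show that the sets are alike.

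In the conservative list the shares of promoters and of the DRE, BEAF and motif 7 cores were higher in the bands of high signal. The GAGAG share was lower there. In optimal-only peaks the promoter share stayed between 64.8% and 69.2% over the bands. Between a signal of 30 and 50 promoters made up 65.8% of 79 optimal-only and 75.8% of 62 conservative peaks, and the DRE core was in 5.06% and 9.68%. Between 50 and 60 the DRE core was in 6.92% of 159 optimal-only peaks and 5.42% of 203 conservative peaks, motif 7 in 10.7% and 12.3%, and promoters made up 64.8% and 69.5%. Between 60 and 70 the DRE core was in 8.33% of 120 and 9.48% of 232, and promoters made up 69.2% and 73.3%. In these 3 bands the 95% intervals of the sets overlapped. GAGAG, higher in optimal-only peaks over the whole lists, was lower in them between a signal of 30 and 60. Its shares were 24.1% of optimal-only and 32.3% of conservative peaks between 30 and 50, and 22.0% and 29.1% between 50 and 60. From 60 to 250 it was higher in optimal-only peaks. It was in 30% and 26.7% between 60 and 70, in 34.3% and 21.9% between 70 and 100, and in 30.8% and 13.6% between 100 and 250. In each of these bands the 95% intervals of the GAGAG shares overlapped. Between 70 and 100 the shares of the DRE core and of promoters stood further apart. The DRE core was in 10.4% of 67 optimal-only peaks (5.15 to 20.0) and 21.1% of 494 conservative peaks (17.7 to 24.9). Promoters made up 68.7% and 80.2%. Among the 13 optimal-only peaks between 100 and 250, 9 were at promoters (69.2%, 42.4 to 87.3), 4 held the DRE core (30.8%, 12.7 to 57.6) and 0 held motif 7 (up to 22.8%), against 95.3%, 35.9% and 29.1% of 1096 conservative peaks. The bands use the signal that also sets the ranks, so they are a description.

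**Figure D5:**
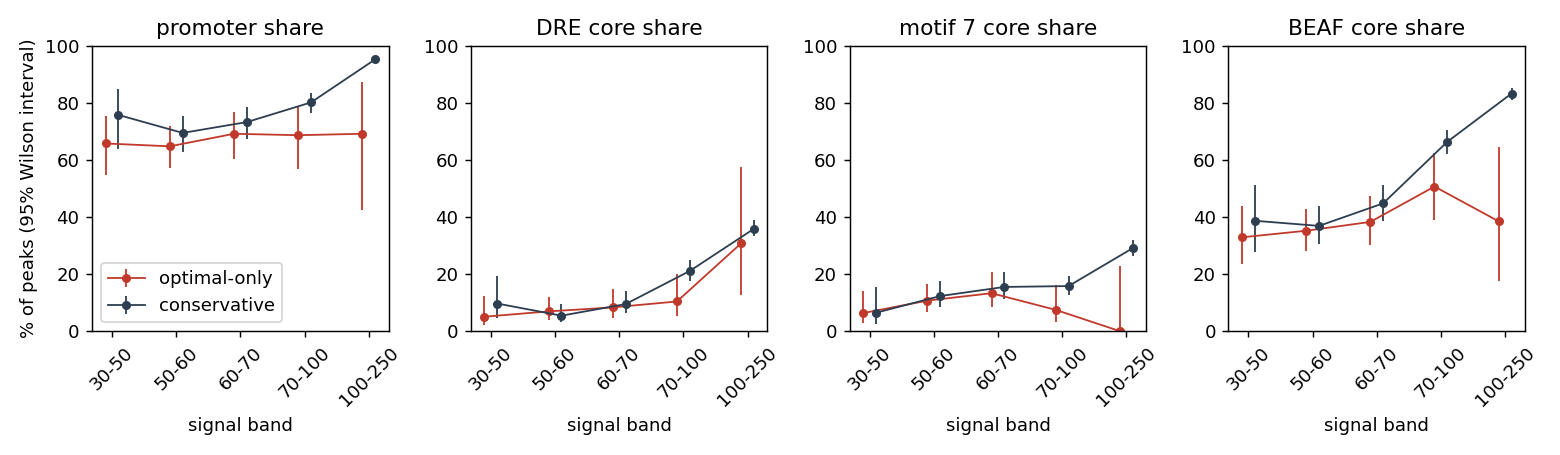
Shares of promoter peaks and of peaks with the DRE, motif 7 and BEAF cores (y axis, percent, with 95% Wilson intervals) by band of deposited signal (x axis) in optimal-only and conservative peaks. The sets lie close together in the bands from 50 to 70, and above 100, where only 13 optimal-only peaks fall, promoters make up 69.2% of these and 95.3% of conservative peaks.

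The share with the DRE core was set against the replicates' own lists, as a description with no test. The core was in 21 of the 152 optimal-only peaks found in replicate 1's own list alone (13.8%, 9.22 to 20.2), in 8 of the 78 in replicate 2's alone (10.3%, 5.29 to 19), in 0 of the 5 in both (up to 43.4%) and in 8 of the 256 in neither (3.12%, 1.59 to 6.04). The intervals of the 2 replicates' classes overlapped, and that of the peaks in neither list lay below that of replicate 1's. Promoters made up 67.1% of the peaks in replicate 1's list alone, 74.4% of those in replicate 2's alone and 62.9% of those in neither, and X held 11.8%, 11.5% and 12.1% of these classes. Their median signals were 64.6, 60.4 and 52.9, and that of the 5 in both was 67.7. Peaks in neither list were thus lower in signal, and the part of signal in the DRE shares was not tested.

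At tRNA genes, which RNA polymerase III transcribes, the optimal-only peaks came mostly from replicate 1. The nearest start site, within 500 bp of the summit, was that of a tRNA gene in 15 optimal-only peaks (3.05%, 1.86 to 4.98), against 144 conservative peaks (4.96%, 4.23 to 5.81; -1.90 points, -3.37 to 0.15; Fisher's exact test, adjusted p = 0.0975). The direction turned with the replicate whose own list limited the optimal-only peaks, while all conservative peaks were kept. The difference was 3.32 points with replicate 1's list (exact adjusted p = 0.135) and -3.75 points with replicate 2's (0.374). Replicate 1's list also held 130 of the 144 conservative tRNA peaks, against 74.1% of all conservative peaks. The part of this unlike filtering in the turn was not tested. Against the 2170 conservative peaks within the full signal range of the optimal-only ones the tRNA difference passed, at -2.84 points (exact adjusted p = 0.0189). That range is wide, so this is not a match on signal. Of the 15, 13 were in replicate 1's own list and 1, at tRNA:Phe-GAA-1-5, in replicate 2's. Their signals ranged from 37.9 to 103 with a median of 54.7 in replicate 1's ranked list, and from 9.81 to 98.1 with a median of 18.6 over 13 entries in replicate 2's. Of the 293 optimal-only promoter peaks nearest to a protein-coding gene, 88 were in replicate 1's list and 62 (21.2%) in replicate 2's, with medians of 33.5 and 22.5. The 144 conservative tRNA peaks showed the same order, with medians of 90.5 in replicate 1 and 50.1 in replicate 2, against 85.0 and 74.2 at conservative promoter peaks nearest to protein-coding genes. Of all 290 annotated tRNA genes, 20 (6.90%) had an optimal-only promoter peak and 189 (65.2%) a conservative one, 3 of them both. Several of the 20 share 1 peak: tRNA:Asn-GTT-1-4, tRNA:Asn-GTT-1-5, tRNA:Asn-GTT-1-6 and tRNA:Lys-CTT-1-2 all lie at 1 peak with a signal of 74.51. Copies of a tRNA family have near-identical sequences, so reads there can be hard to place. How the authors treated such reads is not given in the sources used here.

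Optimal-only promoter peaks added few protein-coding genes. Of 13968, 353 (2.53%) had such a peak, and 3152 (22.6%) had a conservative one. Both kinds were present at 36, which is 10.2% of the 353, and 24 of these have several start sites and 12 a single one. Thus 317 genes had an optimal-only promoter peak alone, and 3469 genes had a peak of either kind.

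Genes of growth and protein production had 0 to 4 of these peaks per list. For each list the share is set beside the 2.53% of all protein-coding genes, and with counts this small no list is read as standing apart. Cytoplasmic ribosomal protein genes had 3 of 86 (3.49%): RpL14 of the large subunit (3L, 8600674 to 8601077; 65.31), sta, which encodes the small-subunit protein RpSA (52.32), and RpLP1 of the ribosomal stalk (42.31). Mitochondrial ribosomal protein genes had 4 of 73 (5.48%), with mRpL38 (55.20), mRpS14 (53.26) and mRpL51 (52.75) highest. Conservative peaks were at 48 of these 86 and 32 of these 73 genes, where they are at 22.6% of all protein-coding genes. Proteasome genes had 2 of 48 (4.17%), at Rpt4, an ATPase of the regulatory particle (53.63), and at Rpt3R (45.58). Oxidative phosphorylation genes had 2 of 84 (2.38%), at ND-B14.7 of complex I (63.54) and SdhC of complex II (59.29). Single genes had one in the lists for translation factors (eIF3f2, 34.12, of 54), Mediator and TAF subunits (Taf1, 53.75, of 40) and splicing (Prp5, 64.13, of 29), and 0 of 41 cell cycle genes did.

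Among genes of development 3 lists had 2 genes each with an optimal-only promoter peak, shares above the 2.53% of all protein-coding genes but resting on 2 genes a list. In the homeobox and segmentation list 2 of 26 (7.69%) had an optimal-only promoter peak, hh, the Hedgehog ligand (3R, 23141874 to 23142277; 63.55), and run, the pair-rule gene runt (X, 20694315 to 20694718; 52.87), and 3 of 26 had a conservative one. In the Polycomb and trithorax list 2 of 24 (8.33%) had one and 8 had a conservative one. The 2 were Su(z)2 (2R, 12996387 to 12996790; 79.88) and its neighbour Psc (2R, 12980701 to 12981104; 60.59), which encode related Polycomb group proteins. In the signalling list 2 of 29 (6.90%) had one and 16 had a conservative one. The 2 were fz, a Wnt receptor (64.10), and spi, an EGF receptor ligand (60.67). Their replicate support differed: Su(z)2 was in replicate 1's own list, Psc in replicate 2's, and hh, run, fz and spi in neither. There were 0 in the lists of 179 chemosensory receptor, 139 cuticle protein, 26 heat shock, 21 neural and 15 muscle genes. Conservative promoter peaks were at 2, 0, 6, 7 and 5 of these genes, in that order. The lists of 26, 21 and 15 genes are too short to tell 0 from 2.53%. Of 32 snRNA genes 1 (3.12%) had an optimal-only promoter peak, snRNA:U4:38AB (59.04), and 7 had a conservative one. Of 269 snoRNA genes 1 (0.372%) had one, snoRNA:U3:54Aa, at a peak shared with tRNA:Leu-AAG-1-2 (63.95), and 19 had a conservative one.

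At the CG8478 gene itself (3R, 9763650 to 9766135), 1 optimal-only peak lay within 5 kb. It is in a coding exon near CG9471 (9770761 to 9771164), with a signal of 42.63, and was in neither replicate's own list. The conservative peaks in the same region were at Snap24 (318.28), Mpi (124.10) and Naa80 (102.38), and the optimal-only peak was lower than each of them.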

How the data were processed

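The data are peak lists of anti-GFP ChIP-seq in the 2 replicates of the single group. Per the file headers, the authors made the pooled lists from both replicates' alignments and 1 control alignment, and each replicate's own lists from its alignment and that control, in dm6 coordinates. Which aligner and peak caller were used is not given in the sources used here. The deposited signal per peak has no stated scale. The deposited score is the authors' scaling of the IDR up to 1000, the deposited ranked lists also give the −log10 of the IDR as a score, and the authors' −log10 q-value stands beside each peak. The lowest −log10 IDR of each pooled list is 2.00, an IDR of 1%.

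Entries with the same interval were counted once, with the highest signal, on X, 2L, 2R, 3L, 3R, 4 and Y. Of 3151 optimal entries 3101 remained, and of 2948 conservative entries 2904. Overlap meant at least 1 bp. Start sites and genes came from Ensembl release 115, and sequence from the RefSeq Release 6 assembly, within whose chromosome lengths all peaks lie. Promoter peaks have a summit within 500 bp of a start site. Of the deposited values, none gives read depth, so intervals cover the counting of peaks only.

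Shares of position and sequence were compared by two-sided Fisher's exact tests with Newcombe intervals and Benjamini-Hochberg adjustment over 18 properties. Signal, IDR and the replicates' lists got no test, since they come from the reads that chose the peaks. The optimal-only peaks, the motifs and the gene lists were chosen with earlier results of these data known. Genes named are those nearest to the 12 highest peaks, the 8 highest distal peaks, peaks at the threshold, peaks in both replicates' lists, the 3 highest on X and on 4, up to 3 per gene list, and any peak within 5 kb of CG8478. Polr1B, CG9171, Trl, lncRNA:bxd and Dad were named by motif after their values were seen. Other motif windows, promoter windows, overlap rules and comparison sets were tried. The procedure was tested on simulated data. Tests were run with SciPy 1.17.1 and statsmodels 0.14.6 in Python 3.11.15, tables were handled with pandas 2.3.3 and NumPy 2.4.6, and figures were drawn with matplotlib 3.10.9.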

Additional observations from a re-analysis of the deposited data

Results flagged for a closer look

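Outside the main arms the optimal list held 11 further peaks that overlap no conservative peak. On the mitochondrial genome there were 4, with signals of 8870.31, 5215.77, 5083.94 and 345.01, of which 3 exceed the highest signal of any peak on the main arms, 2181. Replicate 1's own list had 10 mitochondrial peaks, with a highest signal of 8656, and replicate 2's own list and the conservative list had 0. On unplaced sequences of the X there were 7, with signals of 23.03 to 71.92. No read depth or mappability of these sequences was used, and the cause was not tested.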

How the results depend on the processing

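Of 190 recomputed differences in the 18 properties, 151 kept their direction and their side of the threshold, 23 turned direction and 16 kept it but crossed the threshold. Of the 23, 16 belong to properties that passed neither as reported nor recomputed. Of 16 recomputed counts and median signals, 13 stayed within their limits of change. The differences that follow are in percentage points, optimal-only minus the compared peaks, with Fisher's exact tests. Against conservative peaks below their median signal, TATA was -3.70 and GAGA 3.89 (exact adjusted p = 0.128 for both), and the E-box turned to -0.12. Against conservative peaks in the full, wide signal range of the optimal-only ones, tRNA start sites passed at -2.84 (0.0189). Optimal-only peaks at or above their median signal had -3.35 for TATA (0.459) and -0.45 for the Zelda site. Against conservative-only peaks no call held: promoter 0.21, within 100 bp 2.61, X 2.93, DRE 2.08, TATA 1.72 and GAGA -1.16 changed sign, as did tRNA 1.96, motif 6 1.30, Pho -1.29 and the B box 2.62, and divergent -1.57, repeat-masked 2.69, BEAF -3.57 and motif 7 -3.40 did not. Among promoter peaks repeat-masked was -0.05, motif 6 1.27 and TATA -4.44. In the wider motif windows the E-box was -0.09, and with overlapping peaks counted once motif 6 was 0.06. With the peaks of 1 replicate's own list, the differences ran from -15.93 to -4.21 for divergent promoters, -3.75 to 3.32 for tRNA, -7.65 to -7.60 for X, 3.44 to 4.99 for repeats, -4.41 to -1.33 for TATA, 3.40 to 9.10 for GAGA, -5.41 to 1.61 for motif 1, 0.36 to 3.06 for motif 6, -1.14 to 1.03 for the initiator, -7.29 to 8.84 for Pho and -4.07 to 2.72 for the B box, over 83 to 157 peaks, so fewer peaks were tested. In these differences the conservative peaks were not limited to a replicate's list. At or above the median score 247 peaks remained. No paired analysis was possible because there is 1 group. Depth is unknown, and the p-values count peaks, not replicates.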

Other observations

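There are 54 optimal-only peaks with GAGAG away from promoters, the highest being the CG9171 peak. The peaks named here were picked from these after their values were seen and do not stand for the class. One is in an intron of Trl, the gene for GAGA factor itself (3L, signal 71.74), with 50.28 in replicate 1 and 19.12 in replicate 2. Another lies in an intron 9008 bp from the nearest start site, that of lncRNA:bxd in the bithorax complex (3R, 73.77), with 24.65 in replicate 1 and 50.04 in replicate 2. Also in this class is a peak in an intron of Dad, an inhibitor of BMP signalling (63.50). Each of these pairs of replicate signals is a single measurement per replicate, with no error of its own.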
